A study of Homo sapiens with 6 samples.

Results

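The 4 anthracycline-tolerant clones of K562, ATC1 to ATC4, were set against parental K562 cells exposed to doxorubicin for 48 h, so that cells kept growing in the drug were compared with cells newly meeting the same dose of 225 ng/ml. K562 is a human cell line from a chronic myelogenous leukaemia with erythroid and megakaryocytic features. These 5 samples, 4 clones and 1 acute sample, were taken from the 6 samples of the study, which asked what transcriptional state goes with drug tolerance. The clones came from 480 wells seeded with 10000 cells each, which were given 100 ng/ml doxorubicin for 3 days and then 225 ng/ml. After 4 weeks 21 wells held viable cells, and the 4 that could be maintained are ATC1 to ATC4. They are called clones as in the labels, but each grew from a well of many cells. The acute sample, called the 48 h library below, was parental K562 given 225 ng/ml doxorubicin for 48 h. The design text of the series writes the clones' dose in ng/ul at 1 point, and ng/ml, the unit of all other descriptions, is used here. Untreated parental cells are 1 sample with 2 libraries, Parental_1 and Parental_2, and their label also carries the time of 48 h. Nothing in the labels says that the untreated cells, the acute sample and the clones were harvested or sequenced together.

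Doxorubicin is an anthracycline that slides between DNA bases and traps topoisomerase II on cut DNA, so that double-strand breaks accumulate. Cells can answer acutely by arresting division, by p53 or stress signalling and by dying, although K562 cells lack functional p53. Cells that keep growing in an anthracycline are known to carry it out through pumps such as P-glycoprotein, to alter the topoisomerase targets or to reduce the drug with carbonyl and aldehyde-handling enzymes.

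Libraries held 18420238 to 21361758 counts in the clones, 14146994 in the 48 h library, 20895918 in Parental_1 and 12537146 in Parental_2. The clones and Parental_1 stand in 1 deposited table, and the 48 h library and Parental_2 in another, so the table cannot be told apart from the comparison when the 5 libraries are compared alone. Parental_1 and Parental_2 bear on this: of 18675 genes tested, 1473 were at least 2-fold higher in Parental_1 and 1380 at least 2-fold lower. Values of both are therefore given beside most genes named. A second fit over all 7 libraries held the table as a term, which amounts to the clones relative to Parental_1 minus the 48 h library relative to Parental_2. The identity genes of K562 HBG1, HBG2, HBE1, HBZ, HBA1, HBA2, TFRC, GATA1, KLF1 and TAL1 all had at least 10 counts in every library, and GATA1, the erythroid regulator, had 5668 to 7245 counts in the clones and 3415 at 48 h. CPM are counts relative to library size, per 1e6, after scaling of library sizes by the trimmed mean of M values. Markers of other cell types lay on both sides of the 48 h library. Over 6 granulocyte and monocyte markers the summed level was 44.2 to 60.4 CPM in the clones, 102 CPM at 48 h, 29.3 CPM in Parental_1 and 43.2 CPM in Parental_2. In that list MPO and ELANE, of neutrophil granules, had 629 and 14 counts at 48 h and 319 and 5 in Parental_2, against 28 or fewer and 1 or fewer in each clone and 0 in Parental_1. LYZ, lysozyme, had 767 to 1214 counts in the clones and 825 at 48 h, CD14 16 to 27 and 7, CSF1R 15 to 23 and 19, and ITGAM 13 to 347 and 64. Of the lymphoid markers, CD3D had 51 to 590 counts in the clones and 82 at 48 h, and MS4A1 had 1 or fewer in every library. Over 9 fibroblast and epithelial markers the summed level was 127 to 241 CPM in the clones and 403 CPM at 48 h, of which KRT19 made up 335 CPM. The collagen genes of that list did not all follow the sum, with 72 to 915 counts of COL1A2 in the clones against 11 at 48 h, 8 to 42 of COL3A1 against 8, and 131 to 1218 of COL1A1 against 340. The part of other cell types in the results was not tested. Mitochondrially encoded genes took 5.07% to 9.63% of counts in the clones and 7.49% at 48 h. In these bulk samples a smaller number of cells of a kind and less RNA per cell cannot be told apart.

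Among 18675 genes, 20 were called higher in the clones (0.107% of genes tested) and 15 lower (0.0803%) by the quasi-likelihood test of edgeR, with p-values adjusted by Benjamini-Hochberg and a threshold of 0.05. The 48 h condition is 1 library, so the test takes its spread from the 4 clones alone. An exact permutation of 4 samples against 1 could not go below a one-sided p of 0.2, or 0.4 where that value is doubled for a two-sided p. The fit with the table as a term called 0 genes in either direction, with 595 higher and 371 lower at an unadjusted p under 0.05, where the fit of 5 libraries had 1253 and 1415. DESeq2 called 537 higher and 297 lower, among them all 35 genes that edgeR called. On counts simulated once for this design, a larger share of DESeq2's calls was false than of edgeR's. Those counts used edgeR's own estimates of spread and held no difference between tables. They therefore cannot decide which tool is nearer the truth here. Without ATC4, edgeR called 78 higher and 92 lower, and without ATC1, ATC2 or ATC3 it called 0. Counting by size alone, 874 genes were at least 2-fold above the 48 h library in all 4 clones (4.68% of genes tested) and 992 at least 2-fold below it in all 4 (5.31%). With each library first divided by the parental library of its own table, the ratio of ratios, these counts were 1161 (6.22%) and 1298 (6.95%), and 500 genes were higher and 639 lower by both measures.

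Genes of the 2 sets were also counted by which side lay away from the parental level. The clones were placed by the mean of their log2 ratios to Parental_1. Of the 992 lower genes, 574 were at least 2-fold above Parental_2 in the 48 h library while the clones lay within 2-fold of Parental_1. Another 122 lay at least 2-fold above the parental library on both sides, and 89 lay at least 2-fold below it in the clones with the 48 h library within 2-fold. Of the 874 higher genes, 258 lay at least 2-fold above Parental_1 in the clones with the 48 h library within 2-fold of Parental_2. A further 245 lay at least 2-fold below Parental_2 at 48 h with the clones within 2-fold of Parental_1, and in 182 both sides lay within 2-fold. These are counts by size, without a test. The values that placed a gene in a set also enter its ratios to the parental libraries, so the selection partly fixes this split. The same classes were not counted over all genes tested.

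**Figure D1:**
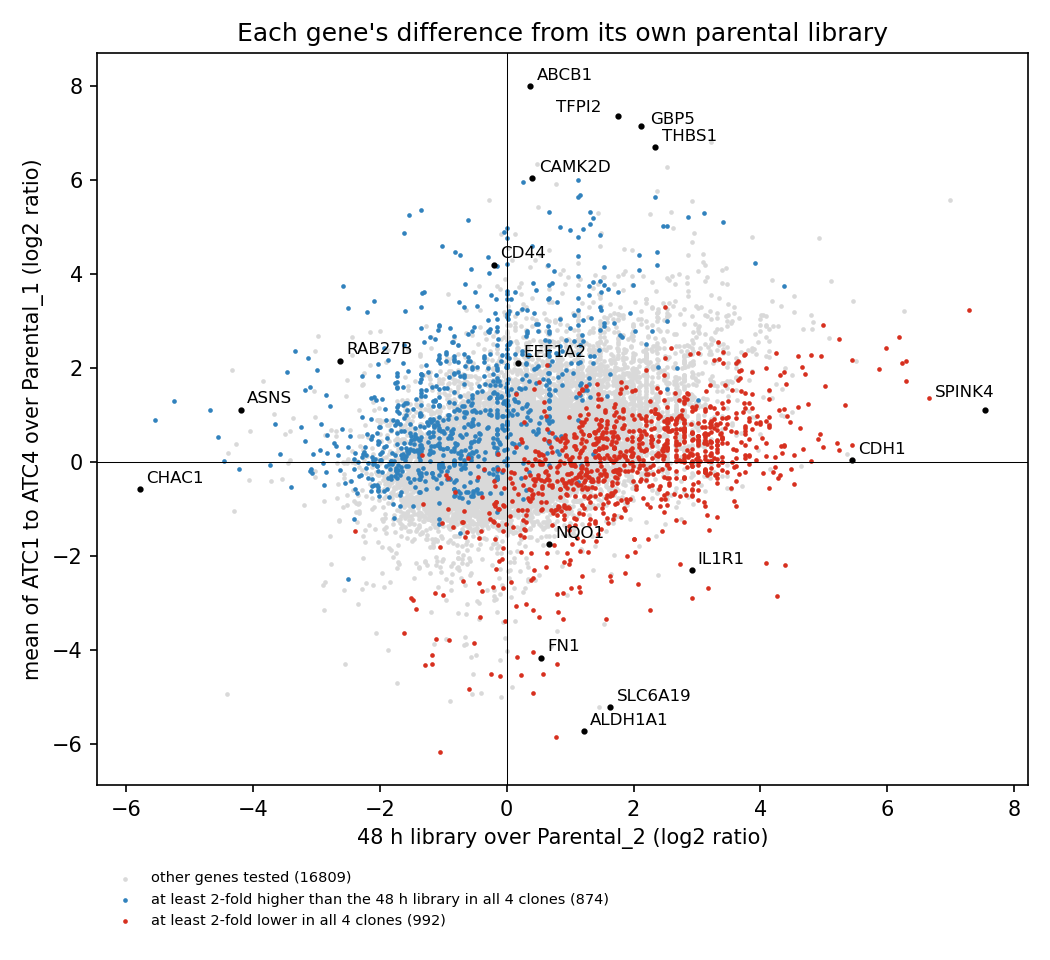
Each point is 1 of the 18675 genes tested. The x axis is the log2 ratio of the 48 h library to Parental_2. The y axis is the mean of the log2 ratios of ATC1 to ATC4 to Parental_1. Genes at least 2-fold lower than the 48 h library in all 4 clones (992, red) lie mostly to the right of 0, and genes at least 2-fold higher (874, blue) lie above or to the left, with ABCB1 at the top.

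The 3 genes that mark these samples lay far apart between clones and acute cells. ABCB1, which encodes P-glycoprotein and exports anthracyclines (ENSG00000085563, chromosome 7, 87503633 to 87713323, GRCh38), measured 456, 2165, 397 and 769 CPM in ATC1 to ATC4 and 3 CPM in the 48 h library. Both parental libraries were close to the acute sample, with 2.79 CPM in Parental_1 and 2.29 CPM in Parental_2. The clone mean of 947 ± 828 CPM (SD, n = 4) was 316-fold the 48 h level, and ATC2 carried the most. The log2 fold change was 8.28 ± 1.55 (SE, obtained throughout as the absolute fold change over the root of F) and 8.01 with the table term. The clones differed from each other as well, and ABCB1 was not called by the quasi-likelihood test of edgeR (Benjamini-Hochberg adjusted p = 0.119). Over 13 alternatives its adjusted p ranged from 1.24e-17 to 0.94, and 2 of the 13 called it. ABCB1 overlaps RUNDC3B, and the sources used here do not say how the authors treated strand.

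ALDH1A1, a cytosolic aldehyde dehydrogenase that makes retinoic acid (ENSG00000165092, chromosome 9, 72900662 to 73080442), showed the reverse. It measured 0.313, 0.796, 0.767 and 0.301 CPM in ATC1 to ATC4 against 78.8 CPM at 48 h, with 32.4 CPM in Parental_1 and 34 CPM in Parental_2. The clones were thus below untreated cells and the acute sample was above them. The 48 h level was 145-fold the clone mean of 0.544 ± 0.274 CPM (SD, n = 4). The log2 fold change of -7.19 ± 0.52 (SE) was called (adjusted p = 0.0274) and was -7.10 with the table term. SLC6A19, a neutral amino acid transporter known from kidney and gut (ENSG00000174358, chromosome 5, 1201595 to 1225117), measured 0.895, 0.995, 0.46 and 0.852 CPM in the clones and 35.5 CPM at 48 h. Its parental values were 32.8 CPM in Parental_1 and 11.4 CPM in Parental_2, so that all 4 clones lay below every other library. The log2 fold change was -5.48 ± 0.46 (SE, adjusted p = 0.0274) and -6.99 with the table term. Over 13 alternatives, 9 called ALDH1A1 and 9 called SLC6A19, with adjusted p from 1.47e-28 to 0.94 and from 2.33e-20 to 0.94.

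The promoters of ABCB1 and ALDH1A1 are shown because these genes carried the contrast between clones and acute cells in opposite directions. Each window runs from 250 bases before to 50 bases after the start that RefSeq gives on GRCh38.p14 and is written 5′ to 3′ along the gene. Capitals mark CCAAT on either strand, the box bound by the factor NF-Y. The ABCB1 window is chr7:87600835-87601134, minus strand, with matches whose first bases lie at -238 and -79 from the start. A second RefSeq start of ABCB1 had a window without a match. The ALDH1A1 window is chr9:72953004-72953303, minus strand, with 1 match at -74. Of 35116 such windows, 34.6% held this motif.
ABCB1: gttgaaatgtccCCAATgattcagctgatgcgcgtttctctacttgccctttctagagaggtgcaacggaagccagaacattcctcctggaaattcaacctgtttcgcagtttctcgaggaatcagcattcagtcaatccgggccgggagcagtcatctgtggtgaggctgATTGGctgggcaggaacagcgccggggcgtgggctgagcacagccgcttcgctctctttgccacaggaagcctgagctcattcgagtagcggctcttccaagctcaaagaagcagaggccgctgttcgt
ALDH1A1: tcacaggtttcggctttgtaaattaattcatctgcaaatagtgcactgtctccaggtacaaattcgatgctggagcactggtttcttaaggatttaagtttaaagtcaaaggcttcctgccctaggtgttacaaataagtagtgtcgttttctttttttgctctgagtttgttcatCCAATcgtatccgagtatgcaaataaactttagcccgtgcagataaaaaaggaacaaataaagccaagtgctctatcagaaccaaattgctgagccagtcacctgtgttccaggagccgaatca

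The remaining 13 genes called lower, apart from ALDH1A1 and SLC6A19, include secreted, surface and metabolic proteins. SPINK4, a secreted serine protease inhibitor of goblet cells, measured 0.761, 0.746, 1.43 and 0.551 CPM in ATC1 to ATC4 against 52 CPM at 48 h and 0.322 CPM and 0.17 CPM in the parental libraries (log2 fold change -5.91 ± 0.48). High SPINK4 was thus seen in the acute sample alone. SULT2A1, a steroid sulfotransferase of liver and adrenal, had the same shape, with 0.403, 0.0995, 0.153 and 0.401 CPM in the clones, 12 CPM at 48 h and 0.161 CPM in Parental_1 and 0.17 CPM in Parental_2. CDH1, the epithelial adhesion protein E-cadherin, measured 0.224, 0.348, 0.307 and 0.251 CPM in the clones and 8.34 CPM at 48 h, with 0.269 CPM in Parental_1 and 0.0849 CPM in Parental_2. ELF3, an epithelial transcription factor, stood at 1.43, 1.04, 1.02 and 0.802 CPM against 14.5 CPM, where the clones were already above 0.161 CPM in Parental_1 and 0.0849 CPM in Parental_2. In these 4 genes the acute level exceeded every other library.

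FN1, the matrix protein fibronectin (ENSG00000115414, chromosome 2, 215360440 to 215436172), was instead low in the clones. It measured 4.25, 2.69, 2 and 6.36 CPM in ATC1 to ATC4, 171 CPM at 48 h, and 64.5 CPM in Parental_1 and 118 CPM in Parental_2, with a log2 fold change of -5.51 ± 0.49 (SE, adjusted p = 0.0286). IL1R1, the receptor of interleukin 1, stood below both parental libraries in the clones and above them at 48 h, with 0.94, 2.39, 0.921 and 1.4 CPM in the clones, 34 CPM at 48 h and 6.93 CPM in Parental_1 and 4.41 CPM in Parental_2. APOC1, an apolipoprotein, had the same order, with 20.4, 14.1, 17.8 and 34.1 CPM in the clones, 382 CPM at 48 h and 105 CPM in Parental_1 and 104 CPM in Parental_2. NQO1, a quinone reductase that can act on anthracyclines, measured 27.1, 24, 27.4 and 35 CPM in the clones against 170.1 CPM at 48 h and 94.8 CPM in Parental_1 and 107 CPM in Parental_2 (log2 fold change -2.61 ± 0.26, adjusted p = 0.0299). EDARADD, an adaptor of ectodysplasin signalling, differed by -3.90 on the log2 scale and the long noncoding RNA AC008040.1 by -5.08. For MYO1G, a myosin of blood cells, ACVRL1, a receptor of the TGF-beta family, and CD24P4, a pseudogene that can share reads with CD24, the difference was smaller with the table term. MYO1G measured 10.8 CPM at 48 h but already 14.6 CPM in Parental_2, against 1.67 CPM in Parental_1, and its log2 fold change of -4.47 became -1.32 with the table term. For ACVRL1 these were -3.13 and -1.33, and for CD24P4 -4.15 and -1.37. All 15 genes called lower kept their sign with a difference past 2-fold under the table term, and 11 of them have parental libraries within 2-fold of each other.

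**Figure D2:**
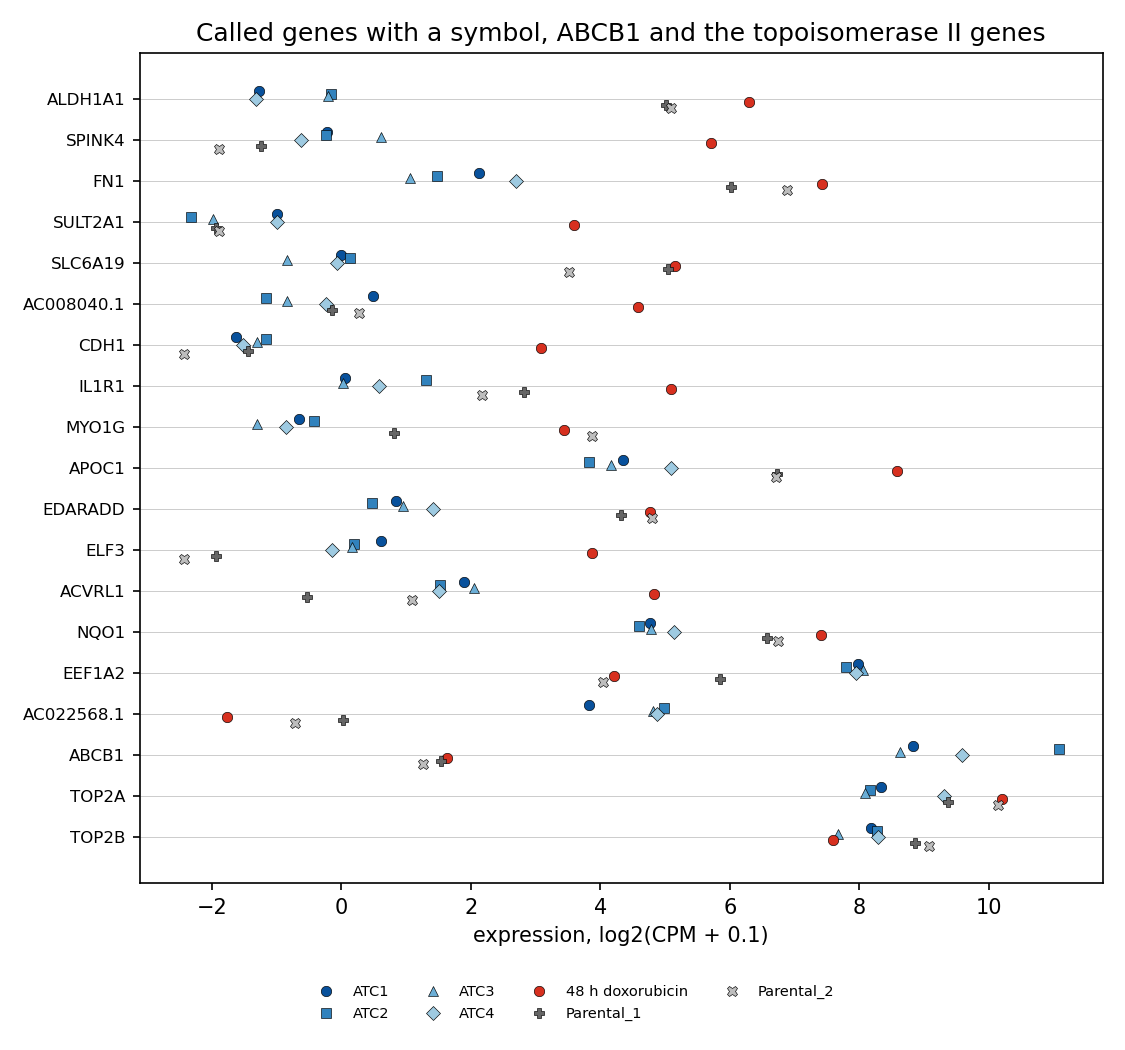
Expression as log2(CPM + 0.1) on the x axis for called genes that have a symbol, apart from CD24P4, with ABCB1, TOP2A and TOP2B below them; each point is 1 library. The 48 h library (red) lies to the right of the 4 clones (blue) in the genes called lower, and the 2 parental libraries (grey) show whether the clones or the acute sample had moved.

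Of the 20 genes called higher, 18 were loci without a gene symbol, 15 of them annotated as ribosomal RNA pseudogenes and 3 as miRNA genes, for example ENSG00000240831. They can share reads with other copies. Together they took 0.266% to 0.285% of the counts in the clones and 0.0301% at 48 h, but also 0.359% in Parental_1 and 0.0424% in Parental_2. Their log2 fold changes of 2.57 to 4.36 became -0.39 to 0.89 with the table term. The log2 ratio of Parental_1 to Parental_2, which had no drug, was 1.80 to 3.64 for them. No statement on drug exposure is drawn from them. The 2 others were EEF1A2 and AC022568.1. EEF1A2, the translation elongation factor isoform of brain and muscle (ENSG00000101210, chromosome 20, 63488012 to 63499322), measured 253, 221, 266 and 248 CPM in the clones against 18.4 CPM at 48 h. Its parental levels of 57.5 CPM in Parental_1 and 16.3 CPM in Parental_2 differed too, and the log2 fold change of 3.72 ± 0.36 (SE, adjusted p = 0.0293) was 1.93 with the table term. AC022568.1, a long noncoding RNA on chromosome 8, measured 14, 31.6, 28.1 and 29.3 CPM in the clones. The 48 h library held only 3 counts of it, and the pooled clones were 130.0-fold higher (95% interval 44.4 to 631, exact, counting error only). Parental levels were 0.914 CPM in Parental_1 and 0.509 CPM in Parental_2. Among genes whose parental libraries lay within 2-fold of each other, an alternative chosen after seeing the data, AC022568.1 was the 1 gene called higher.

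**Figure D3:**
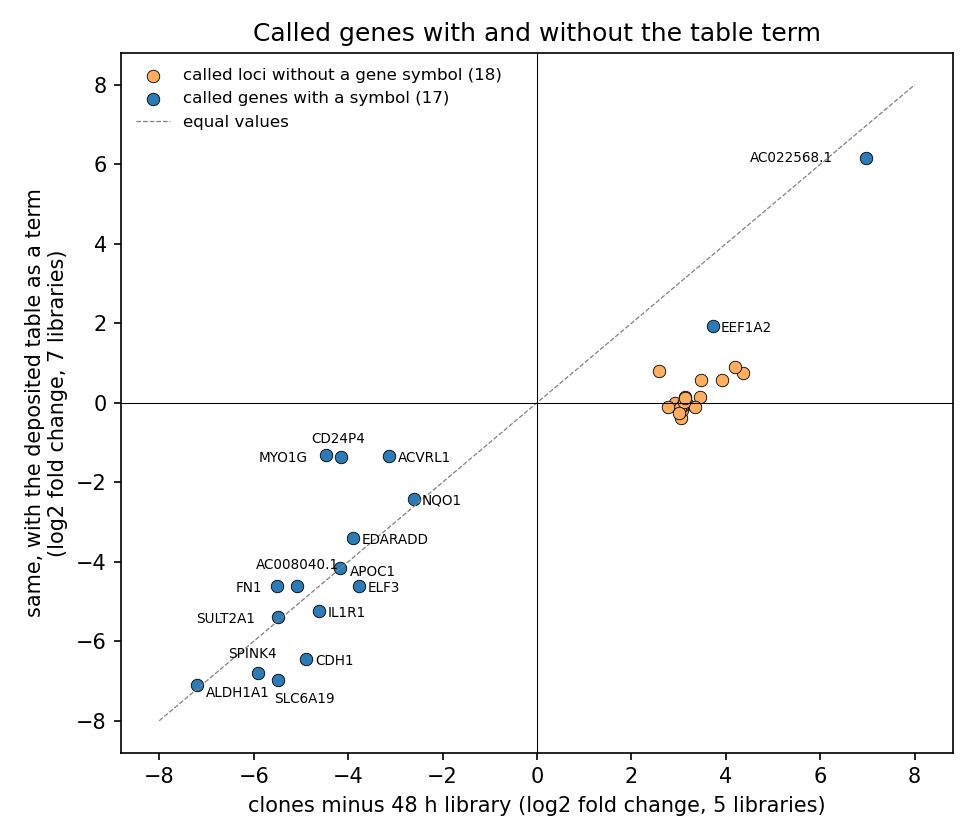
Log2 fold change of each of the 35 called genes in the fit of 5 libraries (x axis) and in the fit of 7 libraries with the deposited table as a term (y axis). Genes with a symbol lie on both axes well away from 0, with CD24P4, MYO1G and ACVRL1 closest to it among those lower, while the 18 loci without a symbol (orange) drop to near 0 on the y axis.

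Genes that handle the drug differed in both directions. The list of drug efflux transporters also holds SLC22A16, an uptake carrier. Of its 17 genes tested, 3 exceeded the 48 h library at least 2-fold in all clones and 2 lay below it (17.6% and 11.8%, against 4.68% and 5.31% of all genes). Relative to the parental libraries, by ratio of ratios, 2 were higher and 4 lower (11.8% and 23.5%, against 6.22% and 6.95%). Besides ABCB1 the higher ones were ABCC4, an exporter of nucleotides and prostaglandins, and ABCC3, an exporter of organic anions. ABCC4 measured 138, 126, 137 and 144 CPM in the clones and 43.7 CPM at 48 h, below both 105 CPM in Parental_1 and 112 CPM in Parental_2. ABCC3 measured 20.1, 23, 33.3 and 1.6 CPM in the clones and 0.717 CPM at 48 h, with ATC4 far below the other 3 and 0.806 CPM in Parental_1 and 0.509 CPM in Parental_2. The lower ones, the exporter ABCC2 and the uptake carrier SLC22A16, were low in every library, at 1.37 CPM and 0.782 CPM at 48 h. In ABCC1, the broad exporter MRP1, the values were 130.2, 182, 168 and 116 CPM in the clones and 91.1 CPM at 48 h (log2 fold change 0.69, adjusted p = 0.435). The list's median log2 fold change was 0.03, near the 0.07 of all genes tested.

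The topoisomerase genes encode the drug's targets. TOP2A, the isoform of dividing cells, measured 322, 286, 271 and 635 CPM in ATC1 to ATC4, 1174 CPM at 48 h, and 660.1 CPM in Parental_1 and 1132 CPM in Parental_2. All 4 clones lay below the acute sample, with ATC4 nearest to it, and the log2 fold change of -1.66 ± 0.46 was not called (adjusted p = 0.214) and was -0.86 with the table term. TOP2B, the isoform also present in resting cells, measured 289.6, 311, 204 and 311 CPM in the clones, 194 CPM at 48 h and 464 CPM in Parental_1 and 542 CPM in Parental_2 (log2 fold change 0.50 ± 0.35, adjusted p = 0.545). Both sides lay below untreated cells. Of 29 genes of anthracycline targets and metabolism, 1 was 2-fold above the 48 h library in all clones and 6 below it (3.45% and 20.7%, against 4.68% and 5.31% of all genes), and by ratio of ratios 1 was higher and 6 lower (3.45% and 20.7%, against 6.22% and 6.95%). AKR1C3, an aldo-keto reductase, measured 0.447, 0.249, 0.665 and 0.752 CPM in the clones against 5.41 CPM at 48 h and 2.85 CPM in Parental_1 and 3.99 CPM in Parental_2. AKR1B1, aldose reductase, was the higher one, at 30.5, 47.9, 74.2 and 41.3 CPM against 8.6 CPM and 4.89 CPM in Parental_1 and 8.4 CPM in Parental_2. The reductases therefore did not share 1 direction.

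The plot of gene lists sets the groups side by side. Of their members, ALDH1A1, NQO1, CDH1, ELF3 and FN1 were called by edgeR, all lower, and the other differences below are by size. The largest median differences among the 27 lists were those of the megakaryocyte and platelet genes (2.42) and of the ATF4 amino acid stress response (1.09). The lowest were those of epithelial and secreted genes (-0.84) and of G2 and mitosis (-0.79).

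**Figure D4:**
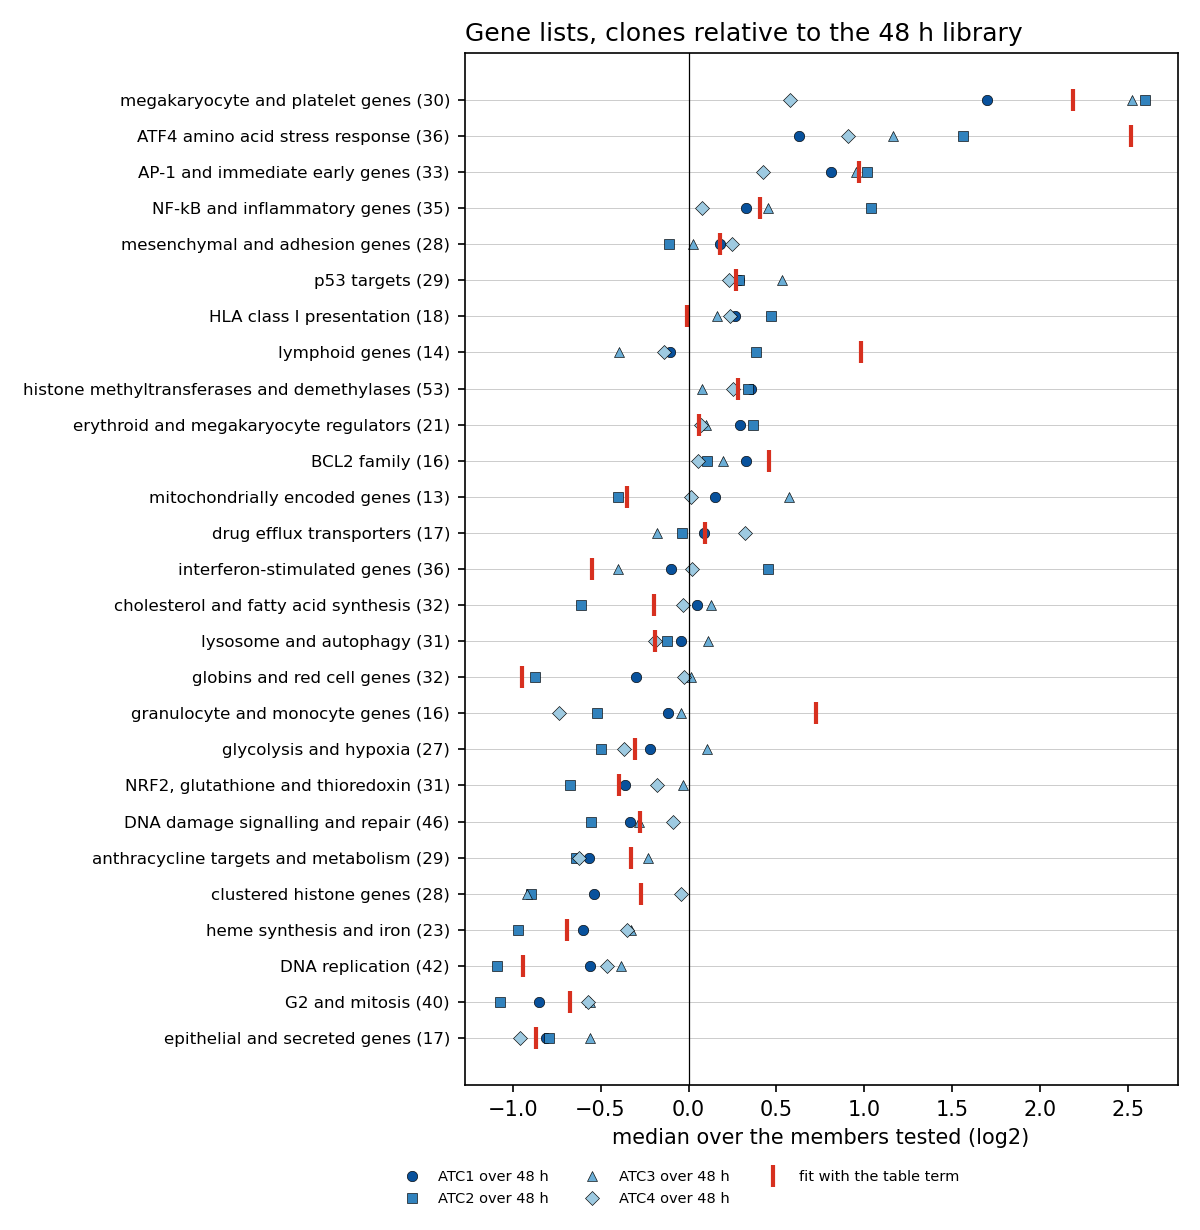
Median log2 ratio to the 48 h library over the tested members of each of 27 gene lists (number tested in brackets), 1 point per clone; the red bar is the median log2 fold change of the fit with the table term. The megakaryocyte list lies to the right in every clone, the ATF4 list moves from 1.09 to 2.51 with the table term, and the division lists lie to the left.

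The median gene of the ATF4 response was low in acute cells. ATF4 is the transcription factor translated when amino acids are short or proteins misfold, and its targets make, import and charge amino acids. Of 36 members tested, 11 exceeded the 48 h library 2-fold or more in all 4 clones (30.6%, against 4.68% of all genes) and 0 lay 2-fold below it, and by ratio of ratios 28 were higher (background 6.22%). The clones' median log2 ratio to Parental_1 was -0.01, whereas the 48 h library's to Parental_2 was -2.22. Without drug, the 2 parental libraries differed too, with a median of -1.39 for Parental_1 over Parental_2. The -2.22 and the ratio of ratios thus include a high level in Parental_2. Summed over the list, the level was 4136 CPM at 48 h, 7873 CPM in Parental_1 and 16981.5 CPM in Parental_2. In the clones it was 6361 to 10157.5 CPM.

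ASNS, asparagine synthetase, measured 253, 479, 549.6 and 227 CPM in ATC1 to ATC4 and 38.6 CPM at 48 h, with 162 CPM in Parental_1 and 704 CPM in Parental_2. Its log2 fold change was 3.27 ± 0.68 (SE, adjusted p = 0.147) and 5.41 with the table term. CHAC1, which degrades glutathione, measured 7.03, 17.1, 5.52 and 14 CPM in the clones and 0.912 CPM at 48 h, below 14.7 CPM in Parental_1 and 56.2 CPM in Parental_2. NUPR1, a stress-induced nuclear protein, had no count at 48 h and 1.66, 2.29, 0.921 and 2 CPM in the clones, at least 8.78-fold higher against a floor of 3 counts in the 48 h library. ATF4 itself stood at 255, 384, 479 and 333 CPM against 90.1 CPM at 48 h and 318 CPM in Parental_1 and 418 CPM in Parental_2. SLC7A11, the cystine importer, measured 52.7, 94.7, 49.2 and 90.1 CPM in the clones and 9.9 CPM at 48 h, and TRIB3, a pseudokinase induced by stress, 136, 544, 302 and 116 CPM and 52.8 CPM. In the amino acid and charging enzymes the pattern recurred. PHGDH, the first enzyme of serine synthesis, measured 103, 205, 224 and 187 CPM against 45.1 CPM, and WARS, a tryptophan tRNA ligase, 219, 549, 433 and 371 CPM against 102 CPM. In all of these the 48 h library was below each of the other 6 libraries.

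**Figure D5:**
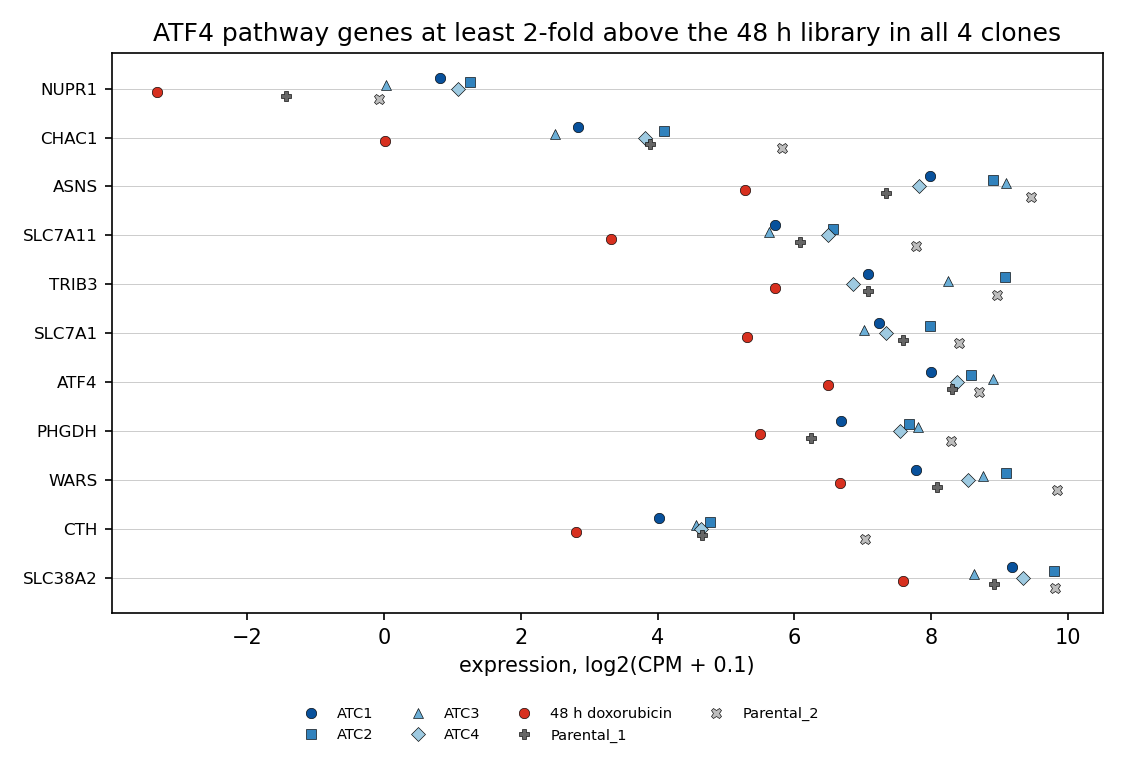
Expression as log2(CPM + 0.1) on the x axis of the 11 ATF4 pathway genes at least 2-fold above the 48 h library in all 4 clones, with 1 point per library. The 48 h library (red) is the lowest of the 7 in every gene, the clones (blue) lie to its right, and Parental_2 lies above Parental_1 in all 11.

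The promoters of ASNS and CHAC1 are shown because they hold the composite element bound by ATF4 with a C/EBP partner, searched as TGATGNAA on both strands. Windows are as above, with the matches in capitals. The ASNS window is chr7:97872359-97872658, minus strand, with a match at -68, and another RefSeq start of ASNS had none. The CHAC1 window is chr15:40953221-40953520, plus strand, with a match at -209. Of the 11 higher members, 8 had a window and 3 of these held the motif (ASNS, CHAC1 and SLC7A1), and of the other 25 members 14 had a window and 3 held it (SLC3A2, SLC1A5 and CEBPG). It stood in 3.62% of all 35116 windows.
ASNS: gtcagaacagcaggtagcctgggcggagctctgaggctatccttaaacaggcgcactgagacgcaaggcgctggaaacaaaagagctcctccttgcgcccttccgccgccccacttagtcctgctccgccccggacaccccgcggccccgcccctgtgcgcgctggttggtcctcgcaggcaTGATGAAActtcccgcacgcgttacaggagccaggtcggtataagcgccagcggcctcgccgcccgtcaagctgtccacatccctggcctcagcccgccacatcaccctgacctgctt
CHAC1: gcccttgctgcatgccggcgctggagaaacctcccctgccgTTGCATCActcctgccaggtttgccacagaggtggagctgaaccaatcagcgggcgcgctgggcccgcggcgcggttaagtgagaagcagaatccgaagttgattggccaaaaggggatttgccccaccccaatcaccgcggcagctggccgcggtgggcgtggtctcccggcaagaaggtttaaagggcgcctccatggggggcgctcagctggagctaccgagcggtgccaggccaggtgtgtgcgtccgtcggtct

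The median megakaryocyte and platelet gene lay above the 48 h library in the clones. Of 30 tested, 8 exceeded the 48 h library 2-fold or more in all 4 clones (26.7%, against 4.68% of all genes) and 2 lay 2-fold below it, with a median of 2.42 and 2.19 with the table term. By ratio of ratios 9 were higher and 2 lower (30.0% and 6.67%, against 6.22% and 6.95%). THBS1, the platelet granule protein thrombospondin 1, measured 118, 348, 245 and 51.2 CPM in the clones against 9.06 CPM at 48 h and 1.34 CPM in Parental_1 and 1.7 CPM in Parental_2 (log2 fold change 4.37 ± 1.20, adjusted p = 0.21). RAB27B, which docks platelet granules, measured 148, 231, 65.9 and 98.3 CPM in the clones, 11.3 CPM at 48 h and 27.4 CPM in Parental_1 and 70.3 CPM in Parental_2. LTBP1, which binds latent TGF-beta, was at 225, 327, 239.7 and 241 CPM against 49.3 CPM at 48 h and 90.7 CPM in Parental_1 and 68.5 CPM in Parental_2. GP6, the collagen receptor of platelets, was at 40.9, 105, 104 and 29.8 CPM against 8.8 CPM and 18.9 CPM in Parental_1 and 30.1 CPM in Parental_2. CMTM5 had no count at 48 h and 1.16, 10.6, 9.41 and 0.551 CPM in the clones, at least 27.8-fold higher against the floor, with 0.0537 CPM in Parental_1 and 0 CPM in Parental_2. ITGA2B, the integrin that defines the lineage, measured 292, 961, 684 and 188 CPM in the clones and 94.3 CPM at 48 h but was under 2-fold in ATC4. ATC2 was the highest clone for THBS1, RAB27B, LTBP1, CMTM5 and ITGA2B. The lower members, CD36 and F13A1, were low in every library, at 1.82 CPM and 0.847 CPM at 48 h.

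Few red cell genes were past 2-fold. Of 32 globin and red cell genes, 0 were higher and 1 lower in all clones (0% and 3.12%, against 4.68% and 5.31% of all genes). The lower one was CA2, a carbonic anhydrase, at 0.134, 0.0497, 0.307 and 0.251 CPM against 1.56 CPM and 0.161 CPM in Parental_1 and 0.594 CPM in Parental_2. The embryonic globin HBE1 measured 3553, 1473, 6825 and 3841 CPM in the clones and 1158 CPM at 48 h, with 1569.6 CPM in Parental_1 and 771 CPM in Parental_2. The median of the list was -0.16, and -0.94 with the table term, where 9 members were lower by ratio of ratios (background 6.95%). In heme synthesis and iron, 0 of 23 were higher and 1 lower (0% and 4.35%, against 4.68% and 5.31% of all genes). By ratio of ratios 0 were higher and 2 lower (0% and 8.7%, against 6.22% and 6.95%). The lower one by the direct ratio was ALAD, the second enzyme of heme synthesis, at 27.2, 14.9, 17.6 and 23.9 CPM against 57.4 CPM. Of 21 lineage regulators, 0 were higher and 2 lower (0% and 9.52%, against 4.68% and 5.31% of all genes), with a median of 0.20. The ratio of ratios gave another balance, as 4 were higher and 2 lower (19% and 9.52%, against 6.22% and 6.95%). RUNX1, MEIS1, ETV6 and FLI1 were the higher ones by that measure, named after their values were seen, of which RUNX1, a factor of blood stem cells and megakaryocytes, measured 233, 229, 146 and 157 CPM in the clones, 128 CPM at 48 h and 130.3 CPM in Parental_1 and 244 CPM in Parental_2. MECOM, a stem cell regulator of the PRDM family, measured 3.49, 12.7, 3.79 and 1.25 CPM in the clones, 37.5 CPM at 48 h and 54.8 CPM in Parental_1 and 70.7 CPM in Parental_2, so the clones lay below all others. Of 16 granulocyte and monocyte genes 0 were higher and 4 lower (0% and 25%, against 4.68% and 5.31% of all genes), and by ratio of ratios 0 were higher and 2 lower (0% and 12.5%, against 6.22% and 6.95%). The lower ones were MPO, ELANE, CTSG and CSF3R, and MPO, ELANE and CTSG also differed between the parental libraries. MPO measured 0.0447, 0, 1.43 and 0 CPM in the clones and 41 CPM at 48 h, but 0 CPM in Parental_1 and 27.1 CPM in Parental_2. ELANE had 0 CPM in Parental_1 and 0.424 CPM in Parental_2. CTSG had no count in any clone, 1.11 CPM at 48 h, 0.0537 CPM in Parental_1 and 0.849 CPM in Parental_2. With the table term the log2 fold changes of MPO and ELANE turned from -6.82 to 5.16 and from -5.65 to 0.39, fitted values that depend on the prior count because Parental_1 had no count of either.

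The median replication and division gene was lower in the clones, but most members did not pass 2-fold in all of them and none was called. Of 42 replication genes, 0 were 2-fold above the 48 h library in all clones and 5 below it (0% and 11.9%, against 4.68% and 5.31% of all genes), with a median of -0.63 (-0.94 with the table term). Against the parental libraries, by ratio of ratios, 0 were higher and 8 lower (0% and 19%, against 6.22% and 6.95%). TK1, thymidine kinase, was at 144, 98.3, 224 and 197 CPM against 495 CPM, and RRM2, a ribonucleotide reductase subunit, at 192, 96.9, 192 and 225 CPM against 462 CPM. At 48 h both exceeded either untreated parental library. TK1 had 211 CPM in Parental_1 and 173 CPM in Parental_2, and RRM2 had 343 CPM in Parental_1 and 273 CPM in Parental_2. Over the whole replication list the clones lay farther from their parental library than the acute sample did. The median log2 ratio was -0.68 for the clones over Parental_1 and 0.25 for the 48 h library over Parental_2. Of 40 genes of G2 and mitosis, 0 were higher and 3 lower in all clones (0% and 7.5%, against 4.68% and 5.31% of all genes), and by ratio of ratios 1 was higher and 2 lower (2.5% and 5%, against 6.22% and 6.95%). The lower ones were ESPL1, KIF20A and NEK2, a share near that of all genes, and the median was -0.79. ESPL1, the separase that splits sister chromatids, measured 68.3, 61.9, 103 and 92.2 CPM against 261 CPM and 133 CPM in Parental_1 and 146 CPM in Parental_2. Of 46 repair genes, 0 were higher and 1 lower (0% and 2.17%, against 4.68% and 5.31% of all genes). The lower one was BRCA1, at 73.5, 86, 74.3 and 126 CPM against 276 CPM and 142 CPM in Parental_1 and 244 CPM in Parental_2. For this list the ratio of ratios gave 1 higher and 0 lower (2.17% and 0%, against 6.22% and 6.95%). Histone genes are sampled poorly by poly(A) libraries and share reads between copies. Among 28 tested, 2 were higher and 1 lower (7.14% and 3.57%, against 4.68% and 5.31% of all genes). Their balance turned by ratio of ratios, with 0 higher and 2 lower (0% and 7.14%, against 6.22% and 6.95%).

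Targets of p53 were mixed. Of 29 tested, 6 were 2-fold above the 48 h library in all clones and 2 below it (20.7% and 6.9%, against 4.68% and 5.31% of all genes), with a median of 0.32. CDKN1A, the cell cycle inhibitor p21, measured 112, 249.6, 205 and 115 CPM in the clones, 43.7 CPM at 48 h and 17.6 CPM in Parental_1 and 11.3 CPM in Parental_2, so it was above untreated cells on both sides and higher in the clones. GDF15, a stress cytokine, measured 178, 266, 257 and 203 CPM in the clones against 46.9 CPM at 48 h and 59.2 CPM in Parental_1 and 111 CPM in Parental_2. TP53I3, a quinone oxidoreductase, went the other way, at 6.09, 4.03, 5.52 and 5.61 CPM against 21.4 CPM and 6.07 CPM in Parental_1 and 8.83 CPM in Parental_2. In the BCL2 family 2 of 16 were higher and 0 lower (12.5% and 0%, against 4.68% and 5.31% of all genes). For this family the ratio of ratios gave 3 higher and 1 lower (18.75% and 6.25%, against 6.22% and 6.95%). The higher ones by the direct ratio were BBC3 and BIK, both promoters of cell death. BBC3 measured 31.7, 60.5, 78.1 and 37.2 CPM against 15.7 CPM and 22.5 CPM in Parental_1 and 46.7 CPM in Parental_2, and BIK, with no count at 48 h, 1.3, 0.696, 0.972 and 0.651 CPM, at least 4.63-fold higher against the floor. The survival gene BCL2L1 measured 291, 319, 394 and 234 CPM in the clones and 154 CPM at 48 h (log2 fold change 0.98, adjusted p = 0.318).

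Interferon-stimulated genes lay on both sides of the 48 h library. Of 36 tested, 4 were 2-fold above the 48 h library in all clones and 5 below it (11.1% and 13.9%, against 4.68% and 5.31% of all genes), with a median of -0.02. By ratio of ratios 1 was higher and 8 lower (2.78% and 22.2%, against 6.22% and 6.95%), so the balance moved towards lower. The higher ones by the direct ratio were the guanylate-binding proteins GBP2, GBP3, GBP4 and GBP5, GTPases of interferon gamma responses, of which GBP5 alone was higher by the ratio of ratios as well. GBP5 measured 268, 158, 160.1 and 25.9 CPM in the clones, 1.11 CPM at 48 h and 0.699 CPM in Parental_1 and 0.17 CPM in Parental_2. GBP4 measured 127, 197, 104 and 8.82 CPM against 1.3 CPM and 1.29 CPM in Parental_1 and 0.17 CPM in Parental_2, and its log2 fold change of 6.36 was 3.51 with the table term. ATC4 was the lowest clone in both. The lower ones included RSAD2, the antiviral viperin, at 9.93, 6.46, 5.73 and 11.5 CPM in the clones against 69.7 CPM at 48 h and 2.15 CPM in Parental_1 and 3.4 CPM in Parental_2 (log2 fold change -3.08 ± 0.40, adjusted p = 0.0513, just short of the threshold). CMPK2, a nucleotide kinase next to RSAD2, measured 34.1, 29.7, 31.8 and 32.8 CPM against 109 CPM (adjusted p = 0.0526). The list's median over the untreated libraries was 1.27 in the clones and 1.87 at 48 h, so both sides were above them. Of 18 genes of class I presentation 2 were higher and 0 lower (11.1% and 0%, against 4.68% and 5.31% of all genes). By ratio of ratios 0 were higher and 1 lower (0% and 5.56%, against 6.22% and 6.95%). The higher ones by the direct ratio were HLA-B and HLA-C, whose reads are hard to tell apart. HLA-C was at 29.4, 27.3, 17.6 and 35.3 CPM in the clones and 7.04 CPM at 48 h, but Parental_1 (9.08 CPM) also exceeded Parental_2 (2.97 CPM), and the log2 fold change of 1.93 was 0.35 with the table term.

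Of 33 AP-1 and immediate early genes, 5 were higher in all clones and 1 lower (15.2% and 3.03%, against 4.68% and 5.31% of all genes), with a median of 0.84. FOSL1, a partner of JUN, measured 37.2, 36.8, 84.1 and 27.8 CPM in the clones and 5.28 CPM at 48 h, but Parental_1 (35.7 CPM) lay within the clones' range. NR4A2, an orphan nuclear receptor, measured 26.8, 36.9, 26.8 and 19.3 CPM against 5.73 CPM and 8.49 CPM in Parental_1 and 6.88 CPM in Parental_2. EGR1 was at 161, 203, 381 and 147 CPM against 52 CPM, with 158 CPM in Parental_1, and its log2 fold change went from 2.08 to 0.30 with the table term. In the 35 NF-kB and inflammatory genes 2 were higher and 0 lower (5.71% and 0%, against 4.68% and 5.31% of all genes), a share near that of all genes, and by ratio of ratios 5 were higher and 0 lower (14.3% and 0%, against 6.22% and 6.95%). The higher ones by both measures were chemokines, and the clones spread widely in each. IL8 measured 6.26, 21.9, 43.4 and 6.11 CPM against 1.24 CPM and 3.12 CPM in Parental_1 and 4.07 CPM in Parental_2, and CXCL3 3.94, 23.1, 14.8 and 3.16 CPM against 1.37 CPM and 7.31 CPM in Parental_1 and 9.25 CPM in Parental_2.

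Enzymes that write or erase histone methylation, which the study's title names, passed 2-fold about as often as other genes by the direct ratio. Of 53 tested, 3 were higher in all clones (5.66%, against 4.68%) and 2 lower (3.77%, against 5.31%), with a median of 0.22. KDM6A, a demethylase of histone H3 lysine 27, measured 87.8, 88.4, 67 and 97.1 CPM in the clones, 32.2 CPM at 48 h and 94.7 CPM in Parental_1 and 84.6 CPM in Parental_2. KDM4C, a demethylase of lysine 9, was at 37.9, 32.7, 33.2 and 29.5 CPM against 13.4 CPM and 26.4 CPM in Parental_1 and 30.8 CPM in Parental_2, and SMYD3, a methyltransferase, at 74.4, 131, 113 and 71.7 CPM against 35.7 CPM and 104 CPM in Parental_1 and 120.1 CPM in Parental_2. In these 3 genes the clones were near untreated cells and the acute sample was below them. PRDM9, a methyltransferase of germ cells, was lower, at 0.582, 0.398, 0.256 and 2.56 CPM against 7.82 CPM, but Parental_1 (5.16 CPM) also lay below Parental_2 (17.2 CPM), and the log2 fold change of -3.07 was -1.30 with the table term. EZH2, the methyltransferase of the Polycomb complex, measured 174, 171, 185 and 131 CPM against 181 CPM (log2 fold change -0.16, adjusted p = 0.844).

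In the NRF2, glutathione and thioredoxin list 2 of 31 were higher and 4 lower (6.45% and 12.9%, against 4.68% and 5.31% of all genes), with NQO1 called, and by ratio of ratios 1 was higher and 4 lower (3.23% and 12.9%, against 6.22% and 6.95%). GSTM2, a glutathione transferase, measured 3.62, 2.83, 5.22 and 7.67 CPM against 32.4 CPM at 48 h and 5.8 CPM in Parental_1 and 7.38 CPM in Parental_2. In cholesterol and fatty acid synthesis 3 of 32 were higher and 1 lower (9.38% and 3.12%, against 4.68% and 5.31% of all genes), and by ratio of ratios 1 was higher and 2 lower (3.12% and 6.25%, against 6.22% and 6.95%). Among the higher ones was SQLE, squalene epoxidase, at 379.7, 459, 438 and 359.8 CPM against 156 CPM and 175 CPM in Parental_1 and 156 CPM in Parental_2. In glycolysis and hypoxia 1 of 27 was higher and 3 lower (3.7% and 11.1%, against 4.68% and 5.31% of all genes). Among the lower ones was EGLN3, an oxygen-sensing hydroxylase, at 15.3, 5.17, 10.8 and 9.47 CPM against 77 CPM and 18.7 CPM in Parental_1 and 16 CPM in Parental_2. SLC2A3, a glucose transporter, was the higher one, at 193, 302, 206 and 195 CPM against 76.9 CPM and 187 CPM in Parental_1 and 229 CPM in Parental_2. Lysosome and autophagy genes gave 1 higher, TFE3, and 2 lower, GAA among them. These were 3.23% and 6.45% of 31, against 4.68% and 5.31% of all genes. By ratio of ratios 2 were higher and 1 lower (6.45% and 3.23%, against 6.22% and 6.95%). Of the 13 mitochondrially encoded genes 0 were past 2-fold in all clones. MT-ND5 measured 3238, 2340.1, 3051 and 3292 CPM against 4227 CPM (adjusted p = 0.531).

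Of 17 epithelial and secreted genes, 1 was higher in all clones and 6 lower (5.88% and 35.3%, against 4.68% and 5.31% of all genes), CDH1 and ELF3 among them called. By ratio of ratios 1 was higher and 7 lower (5.88% and 41.2%, against 6.22% and 6.95%). KRT19, a keratin, measured 57.1, 45.1, 72.9 and 144 CPM in the clones, 335 CPM at 48 h and 133 CPM in Parental_1 and 100.5 CPM in Parental_2. TFPI2, a secreted protease inhibitor, was the higher one, at 32.7, 23.1, 8.54 and 16 CPM against 0.261 CPM and no count in either parental library. Of 28 mesenchymal and adhesion genes, 3 were higher and 3 lower (10.7% and 10.7%, against 4.68% and 5.31% of all genes), and by ratio of ratios 3 were higher and 3 lower (10.7% and 10.7%, against 6.22% and 6.95%). CD44, the hyaluronan receptor, measured 289, 253, 111 and 64.2 CPM in the clones, 6.06 CPM at 48 h and 8.12 CPM in Parental_1 and 6.96 CPM in Parental_2 (log2 fold change 4.86 ± 1.08, adjusted p = 0.161). VIM, vimentin, was at 270.0, 290.1, 232 and 222 CPM against 779 CPM and 612 CPM in Parental_1 and 1272 CPM in Parental_2, and SPARC, a matrix protein, at 5.5, 43.9, 4.91 and 9.47 CPM against 146 CPM and 66.8 CPM in Parental_1 and 72.7 CPM in Parental_2, with ATC2 nearest to the acute level. Of 14 lymphoid genes 1 was higher and 0 lower (7.14% and 0%, against 4.68% and 5.31% of all genes). By ratio of ratios 2 were higher and 1 lower (14.3% and 7.14%, against 6.22% and 6.95%). The higher one by the direct ratio was GZMB, with 0.179, 0.398, 0.921 and 0.401 CPM in the clones and no count at 48 h.

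Some genes differed more among the clones than between clones and the acute sample. The 5 with the largest range over the clones while the 48 h library lay inside it were PPBP, S100A6, MYCT1, H19 and SCN9A. PPBP, a platelet chemokine, measured 2.24, 45.7, 62.9 and 0 CPM in ATC1 to ATC4 and 0.261 CPM at 48 h. S100A6, a calcium-binding protein, measured 0.179, 0.149, 0.102 and 63.3 CPM against 54.7 CPM. Its parental levels were 36.9 CPM in Parental_1 and 19.8 CPM in Parental_2. Among the clones ATC4 alone resembled the acute sample, and ATC1, ATC2 and ATC3 lay below both parental libraries as well. H19, an imprinted noncoding RNA, was high in ATC4 alone, at 0.761, 0.298, 1.23 and 117 CPM against 3.32 CPM. SCN9A, a sodium channel, had no count in ATC3 and 30.5 CPM in ATC2, with 6.26 CPM at 48 h. Its parental levels were 24.1 CPM in Parental_1 and 30.8 CPM in Parental_2.

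Genes farthest apart by both the direct ratio and the ratio of ratios, chosen after their values were seen, added names that no list held. CAMK2D, a calcium-dependent kinase, measured 14.7, 10.6, 12.2 and 21.2 CPM in the clones, 0.261 CPM at 48 h and 0.107 CPM in Parental_1 and 0.17 CPM in Parental_2 (log2 fold change 5.75 ± 0.76, adjusted p = 0.0537). FAM5C measured 17.7, 27.4, 15.9 and 18.5 CPM against 0.782 CPM and 2.04 CPM in Parental_1 and 3.99 CPM in Parental_2 (adjusted p = 0.0526). MGAT5B, a glycosyltransferase, was at 16.4, 13.5, 17.4 and 33.2 CPM against 0.391 CPM and 0.484 CPM in Parental_1 and 0.17 CPM in Parental_2. PRSS1, which can share reads with other trypsinogen genes and pseudogenes such as PRSS3P1, was at 42.9, 56.8, 52 and 11.7 CPM against 0.456 CPM and 0.806 CPM in Parental_1 and 1.53 CPM in Parental_2. MMRN1, the platelet protein multimerin 1, measured 5.1, 34, 13.5 and 4.71 CPM in the clones, and with 2 counts at 48 h the pooled clones were 108-fold higher (95% interval 29.9 to 895, exact, counting error only). On the low side TRPA1, a channel that senses irritants, measured 0.537, 0, 0 and 0.2 CPM in the clones against 23.2 CPM at 48 h and 1.5 CPM in Parental_1 and 1.1 CPM in Parental_2. AFP, the fetal serum protein alpha-fetoprotein, was at 0.134, 0.646, 0.205 and 0 CPM against 21.7 CPM and 1.18 CPM in Parental_1 and 0.934 CPM in Parental_2. COL23A1, a membrane collagen, measured 0.179, 0, 0 and 0.0501 CPM against 10.7 CPM and 3.39 CPM in Parental_1 and 7.13 CPM in Parental_2, and DSG3, a desmosomal cadherin, 0.0447, 0.0497, 0 and 0.0501 CPM against 2.22 CPM and 3.28 CPM in Parental_1 and 2.38 CPM in Parental_2. TRPA1 and AFP at 48 h thus lay above both parental libraries, whereas DSG3 at 48 h lay near them.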

How the data were processed

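Polyadenylated RNA of K562 cells was sequenced from stranded libraries, per the labels' protocols. The deposited tables hold whole read counts by gene, raised by 1 by the authors, with missing values where a pair of libraries has no reads. The deposited log2 fold changes, which the authors made from pairs of libraries, were not used. Aligner, counting program and use of strand are not given in the sources. The submitters' processing notes name GRCh38, but the tables place only 617 of 35158 genes within 10 bases of the GRCh38 start, so positions come from GENCODE 29 by Ensembl ID.

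The added 1 was subtracted, missing values were read as 0, and the tables (34796 and 33312 genes, 30341 in both) were joined by Ensembl ID. Genes were filtered with edgeR's filterByExpr and tested with edgeR 4.0.16 (R 4.3.3; TMM scaling, quasi-likelihood, Benjamini-Hochberg adjustment over 18675 genes at 0.05), with 3 residual degrees of freedom. The test gives the single 48 h library the spread of the clones, and p-values measure only the spread between these samples. A prior count of 2 entered the log2 ratios. The tests were checked on simulated counts. DESeq2 1.42.0 and limma 3.58.1 (voom), other scalings, filters and prior counts, each clone left out and the table term were alternatives. Intervals cover counting error only.

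The members and the 27 gene lists were chosen with earlier results of these data known. Named genes were ABCB1, ALDH1A1, SLC6A19, TOP2A and TOP2B, the 10 called each way with the largest difference in the clone nearest the 48 h library, up to 3 per list each way past 2-fold in all clones (otherwise the smallest p), and the 5 with the largest range between clones. Other list members and the genes ranked by both ratios were named after their values were seen. Some genes that this rule names are given only in the lists' counts or are not reported here. Promoters are from RefSeq on GRCh38.p14.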

Additional observations from a re-analysis of the deposited data

Results flagged for a closer look

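In some genes every clone lay on one side of Parental_1 and the 48 h library on the other side of Parental_2, a difference between the directions that was not tested. The log2 ratio of the 48 h library to Parental_2 was 1.21 for ALDH1A1, 1.63 for SLC6A19, 2.92 for IL1R1, 1.15 for CD36 and 4.26 for TRPA1, all of which lay below Parental_1 in the 4 clones. It was -1.02 for AC022568.1, -1.24 for GDF15, -2.62 for RAB27B, -3.13 for NUPR1, -1.73 for BIK, -1.53 for PRSS1, -2.20 for FAM5C and -3.18 for AL157895.1, all of which lay above Parental_1 in the 4 clones.

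In other genes 1 clone lay far from the other 3 by Dixon's criterion, which chance meets in about 1 in 20 groups. That rate does not hold for S100A6 and H19, which were named for their large range between clones. ATC4 stood apart for TOP2A (635 CPM), PRDM9 (2.56 CPM), CYP51A1 (25.4 CPM), PDK3 (1.95 CPM), S100A6 (63.3 CPM) and H19 (117 CPM), as the highest clone in each. ATC2 was the highest for SLC2A3 (302 CPM), COL1A2 (45.5 CPM), SPARC (43.9 CPM) and ELANE (0.0497 CPM, 1 count). ATC3 was the highest for FOSL1 (84.1 CPM) and MPO (1.43 CPM), and the lowest for DSG3 (0 CPM), where the other clones had 1 count each.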

How the results depend on the processing

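The counts of called genes depended on the processing. DESeq2 called 537 higher and 297 lower, limma-voom 27 lower, and edgeR without the filter on low counts 64 and 81. With the table as a term 0 were called in either direction, 7 libraries without that term gave 4 higher, and genes with parental libraries within 2-fold (added after seeing the data) gave 1 higher. Leaving out 1 clone gave 0 to 78 higher and 0 to 92 lower: 0 and 0 without ATC1, ATC2 or ATC3, and 78 and 92 without ATC4. Of genes at least 2-fold apart in all clones, a prior count of 8 gave 553 higher, and a 4-fold threshold 182 higher and 239 lower. With the table term, medians of lists became -0.94 for globins, 0.72 for granulocyte, -0.55 for interferon-stimulated, -0.0076 for HLA, 2.51 for ATF4, 0.46 for BCL2, -0.35 for mitochondrial and 0.98 for lymphoid genes. Leaving out 1 clone gave medians of -0.24 (without ATC4) to 0.0502 for drug efflux, 0.12 (without ATC2) to 0.85 for NF-kB and -0.36 (without ATC2) to 0.33 for lymphoid genes. The sign turned for MPO (5.16), ELANE (0.39) and GAA (0.35) with the table term, for H19 with limma-voom (-0.48) and when 1 clone was left out (-2.14 without ATC4, up to 3.54), and for SCN9A with limma-voom (-1.30) and when 1 clone was left out (-0.29 without ATC2, up to 1.29). The cause was not tested. No paired analysis was possible because the 48 h group has 1 library and the groups share fewer than 2 replicate numbers. Depth limits genes with few counts at 48 h, the shallowest of the 5 libraries (14146994 counts).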
